A study of Mus musculus with 3 samples.

Results

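The genes described here encode the subunits of the RNA polymerases, measured by RNA-seq in T-helper 1 (Th1) cells of the mouse. Members were taken by name: protein-coding genes whose symbol starts with Polr1, Polr2 or Polr3, or is Polrmt. The rule found 29 genes among 21764 protein-coding genes and 50600 genes in all, of which 5 carry a Polr1 symbol, 13 a Polr2 symbol and 10 a Polr3 symbol. The cells are labelled as primary T-helper 1 cells of strain C57BL/6NJ, with sex not collected and age unknown, and a name in the file headers carries 24 hr. The 3 libraries form a single group with the same donor entry, and the labels do not tell if each is from its own animal or culture. The p-values then measure only the spread between these libraries, which may be technical. The labels name a CD4 T cell differentiation protocol, and they call the assay total RNA-seq while the library protocol they name is for polyA+ RNA. No other condition was measured, and the comparisons made here are between genes within a library and between libraries.

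RNA polymerases copy DNA into RNA, and the nuclear enzymes divide the work. RNA polymerase I (Pol I) makes the large ribosomal RNA precursor in the nucleolus, and Pol II makes messenger RNA and many small nuclear RNAs. Pol III makes transfer RNA, the shortest ribosomal RNA and other short RNAs. Each nuclear enzyme is built around a largest and a second largest subunit that form the active site, with a set of small subunits common to them all, while mitochondria use a single-chain polymerase, the product of Polrmt. Proliferating T cells are known for high ribosome and transfer RNA production after activation.

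The libraries held 3553547 counts (replicate 1), 2945353 (replicate 2) and 3369468 (replicate 3). Of these, 5506, 3420 and 4814 fell on the subunit genes. A gene with no count could still have up to 3 in a library, which is 0.844, 1.02 and 0.890 CPM (counts scaled to the library total), and this covers counting error only. The lowest count of a subunit gene in any library was 14. All 7 T cell markers listed were detected, with summed levels of 422 to 796 TPM, a level per exon length and library. Of 4 Th1 markers 2 were detected: Tbx21, which encodes the Th1 factor T-bet, had 15, 11 and 8 counts and Il12rb2 (opposite Serbp1) 90, 105 and 114, while Ifng had 2, 2 and 1 and Cxcr3 2, 1 and 1. Of markers of other cells, 1 of 5 for B cells was detected (Cd79a, 19, 18 and 22 counts), 2 of 4 for macrophages (Csf1r, opposite Hmgxb3, 1429, 1418 and 1460; Cd68, 22, 6 and 7), 1 of 2 for CD8 T cells (Cd8b1, 30, 20 and 36) and 0 of 3 for NK cells. Ms4a1, Lyz2, Ncr1, Klrb1c and Klrd1 had 0 counts in each library. The counts were made for one strand, and the labels do not say whether that is the strand the library preparation reads as sense. If it is not, every level given here, of genes with and without an overlap, is a residue of the gene's own RNA, and counts on a gene can belong to a gene that faces it. Overlapped genes held 68.0%, 77.5% and 70.3% of all counts in replicates 1, 2 and 3. Wdr38 had 11504, 12175 and 12078 counts where the ribosomal protein gene Rpl35, with 821 shared exon bases on the other strand, had 642, 483 and 615. Of 17 ribosomal protein genes with such an overlap, 6 had fewer counts than a facing gene in every library, a check chosen after these values were seen. All levels and orders of genes are therefore of counts on the strand counted. In libraries of whole cell populations, fewer cells of a type and less RNA per cell cannot be told apart either.

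RefSeq (GRCm38.p6) gave 25 promoter windows for 23 of the 29 genes, and the 250 bases before the start are described. The windows shown are those of Polr1a and Polr2a, which encode the largest subunits of Pol I and Pol II, of Polr3b, which encodes the second largest subunit of Pol III, of the mitochondrial polymerase gene, and of the Pol III paralogs Polr3g and Polr3gl. They run 5′ to 3′ on the strand of the gene, and capitals mark matches on either strand to any of the motifs named next. These were the E-box, spelled CACGTG, the TATA box, spelled TATAAA, the motif of ETS-family factors, spelled CCGGAAG, the GC box of Sp-family factors, spelled GGGCGG, the CCAAT box, spelled as its name, and the NRF1 consensus.
Polr1a, chr6:71908803-71909052, plus strand: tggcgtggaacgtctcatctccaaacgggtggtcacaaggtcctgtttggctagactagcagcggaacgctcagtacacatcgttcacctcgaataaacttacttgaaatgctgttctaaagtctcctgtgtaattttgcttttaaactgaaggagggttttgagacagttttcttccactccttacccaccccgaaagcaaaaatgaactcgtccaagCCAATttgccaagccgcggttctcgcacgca
Polr2a, chr11:69758634-69758883, minus strand: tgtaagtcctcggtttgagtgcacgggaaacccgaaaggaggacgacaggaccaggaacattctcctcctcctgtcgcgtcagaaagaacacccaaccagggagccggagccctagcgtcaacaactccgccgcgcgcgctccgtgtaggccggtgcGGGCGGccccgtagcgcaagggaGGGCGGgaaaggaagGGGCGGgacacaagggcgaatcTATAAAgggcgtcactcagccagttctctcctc
Polr3b, chr10:84622048-84622297, plus strand: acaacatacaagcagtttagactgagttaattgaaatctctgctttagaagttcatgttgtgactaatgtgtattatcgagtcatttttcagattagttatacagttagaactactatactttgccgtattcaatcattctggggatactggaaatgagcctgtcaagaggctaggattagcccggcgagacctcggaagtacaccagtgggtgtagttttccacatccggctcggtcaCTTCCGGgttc
Polrmt, chr10:79746582-79746831, minus strand: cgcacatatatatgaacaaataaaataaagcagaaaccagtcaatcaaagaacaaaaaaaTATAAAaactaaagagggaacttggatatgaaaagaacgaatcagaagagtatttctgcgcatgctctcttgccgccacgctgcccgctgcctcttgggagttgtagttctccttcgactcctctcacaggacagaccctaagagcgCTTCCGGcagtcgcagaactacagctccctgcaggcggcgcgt
Polr3g, chr13:81711014-81711263, minus strand: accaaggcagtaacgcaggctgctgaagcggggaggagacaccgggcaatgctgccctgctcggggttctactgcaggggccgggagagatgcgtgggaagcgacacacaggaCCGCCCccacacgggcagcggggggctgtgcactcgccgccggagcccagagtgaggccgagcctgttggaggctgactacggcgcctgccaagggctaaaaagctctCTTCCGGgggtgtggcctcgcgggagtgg
Polr3gl, chr3:96594182-96594431, minus strand: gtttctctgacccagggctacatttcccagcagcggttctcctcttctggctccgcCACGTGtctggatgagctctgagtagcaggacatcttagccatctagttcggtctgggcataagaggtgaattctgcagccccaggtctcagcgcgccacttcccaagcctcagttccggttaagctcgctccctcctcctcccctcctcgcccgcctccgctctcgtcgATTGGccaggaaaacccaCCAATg

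The printed windows share no single arrangement of these motifs. Polr2a had a TATAAA match 33 to 28 bases before the start with 3 GGGCGG matches upstream of it, Polr1a had a single CCAAT match, and Polr3b and Polrmt each had a CCGGAAG match, Polrmt with a TATAAA match farther upstream. Of the paralogs, Polr3g had CCGGAAG and GGGCGG, and Polr3gl had CACGTG and CCAAT. Over the 25 windows, GGGCGG was present in 15 (60.0%, against 32.7% of 32851 promoter windows of the same length), CCGGAAG in 6 (24.0% against 6.91%) and the NRF1 consensus in 3 (12.0% against 3.74%). CCAAT was present in 7 (28.0% against 33.8%), TATAAA in 3 (12.0% against 12.4%) and CACGTG in 2 (against 6.02%), and none held the YY1 consensus, which 0.207% of all windows hold. None of the 51 matches overlapped another. The median GC content was 59.6% over these windows and 52.4% over all windows. These matches describe letters in the windows and no binding was measured.

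Each of the 29 subunit genes reached 1 TPM in all 3 libraries, against 41.2% of protein-coding genes, and all 29 passed the filter on low counts. Their mean levels ran from 4.31 to 170 TPM, a 39.3-fold range. The median over the 29 genes was 26.6, 20.2 and 26.0 TPM in replicates 1, 2 and 3, a mean of 24.3 ± 3.57 TPM (SD, n = 3), where the median of detected protein-coding genes was 9.77 ± 2.29 TPM. In the order of mean TPM, the ranges over libraries overlapped for 27 of the 28 neighbouring pairs.

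**Figure D1:**
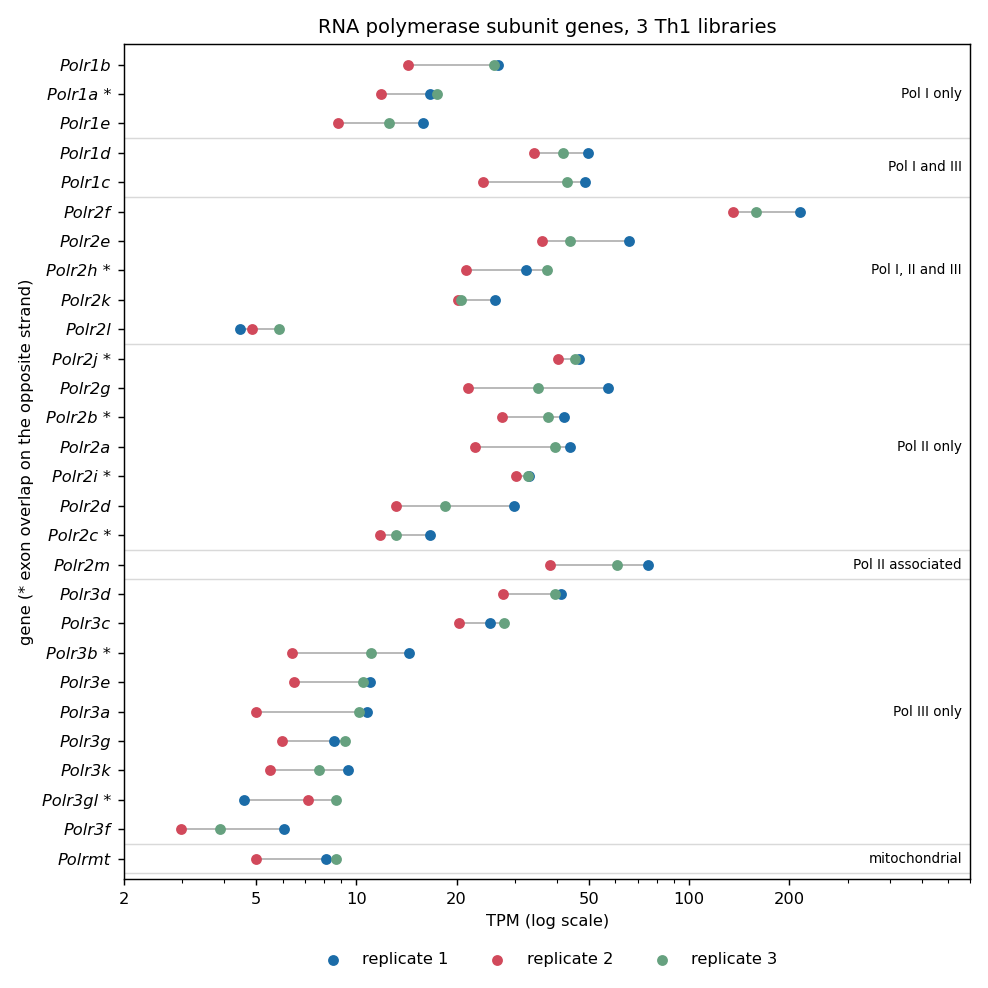
TPM of 28 subunit genes in each library on a log axis, grouped by the enzymes the subunit belongs to; points are libraries, and a star marks a gene whose exons share bases with a gene on the other strand. Among the 28 genes shown, Polr2f lies farthest to the right, at 135 to 215 TPM, and most Pol III genes shown lie at the left.

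Pol I was represented by 3 genes of its own under the symbols taken. Polr1a, on chromosome 6 (mm10, 71909053 to 71984935), encodes the largest, catalytic subunit and had 377, 246 and 388 counts over 11871 exon bases, or 16.7, 11.9 and 17.5 TPM. Polr1b, which encodes the second largest subunit, had 294, 145 and 282 counts, or 26.6, 14.3 and 26.0 TPM. The level of Polr1b was above that of Polr1a in each library, and the log2 ratio of Polr1a to Polr1b was -0.48 ± 0.204. Polr1e, which encodes a smaller subunit specific to Pol I, had 118, 60 and 91 counts (12.4 ± 3.56 TPM). In each of these genes, replicate 2 had the lowest count.

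The subunits common to Pol I and Pol III are encoded by Polr1c and Polr1d, whose products pair to form part of the assembly platform of both enzymes. Polr1c had 210, 96 and 183 counts (38.5 ± 12.8 TPM) and Polr1d 288, 182 and 238 counts (42.0 ± 7.79 TPM). Their ranges overlapped, and in each library both lay above Polr1a, Polr1b and Polr1e.

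The subunits common to Pol I, Pol II and Pol III differed widely among themselves. Polr2f had 222, 128 and 161 counts on only 543 exon bases, or 170 ± 41.2 TPM, and Polr2e had 334, 169 and 218 counts (48.6 ± 15.4 TPM). Polr2h had 89, 54 and 101 counts (30.3 ± 8.18 TPM), and Polr2k, which encodes a small zinc-binding subunit, had 31, 22 and 24 (22.3 ± 3.33 TPM). Polr2l, which encodes another small zinc-binding subunit, had 14, 14 and 18 counts (5.05 ± 0.708 TPM). The highest and lowest of these 5 genes were 33.6-fold apart in mean TPM and did not overlap in any library, although each enzyme holds all of their products. Part of this order follows the length used. Per kb of the longest coding transcript, which is 885 bases for Polr2f, Polr2f stood at 57.9 CPM per kb, Polr2e at 62.7 and Polr2l at 2.84.

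Pol II was represented by 7 genes of its own. Polr2a (chromosome 11, 69733997 to 69758637) encodes the largest subunit, whose repeated tail couples transcription to RNA processing, and it had 590, 282 and 523 counts, or 43.9, 22.8 and 39.6 TPM. Polr2b, which encodes the second largest subunit, had 373, 223 and 328 counts, or 42.0, 27.3 and 37.6 TPM. The levels of this pair did not differ beyond their spread, with a log2 ratio of Polr2a to Polr2b of -0.04 ± 0.183. Polr2c and Polr2j, which encode the platform pair of Pol II, had 167, 108 and 130 counts (13.9 ± 2.55 TPM) and 98, 78 and 94 counts (44.1 ± 3.35 TPM), and their ranges were apart. Polr2d and Polr2g, which encode the stalk pair, had 54, 22 and 33 counts (20.5 ± 8.45 TPM) and 94, 33 and 57 counts (38.0 ± 17.8 TPM), with Polr2g above Polr2d in each library. Polr2i, which encodes a subunit that acts in start site choice and fidelity in yeast, had 76, 64 and 74 counts (32.0 ± 1.53 TPM). Polr2m, whose product associates with a part of the Pol II pool, had 346, 162 and 275 counts (58.0 ± 18.6 TPM), and 421 of its exon bases are shared with a gene on the same strand (ENSMUSG00000092137.7) that had 0 counts in each library.

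Pol III was represented by 10 genes of its own under the symbols taken, most of them low. Polr3a and Polr3b, which encode the largest and the second largest subunit, had 96, 41 and 89 counts (8.65 ± 3.17 TPM) and 144, 59 and 109 counts (10.6 ± 4.01 TPM). Polr3a was below Polr3b in each library, with a log2 ratio of -0.27 ± 0.140. Polr3c and Polr3f encode parts of the subcomplex that opens promoters. Polr3c had 162, 121 and 175 counts (24.4 ± 3.67 TPM). Polr3f had 89, 40 and 56 counts (4.31 ± 1.60 TPM, the lowest of all members in mean TPM). Per kb of the longest coding transcript, Polr2l was lower than Polr3f, at 2.84 against 4.18 CPM per kb. Polr3d and Polr3e, which encode the pair that resembles an initiation factor of Pol II, had 169, 104 and 159 counts (36.1 ± 7.42 TPM) and 105, 57 and 99 counts (9.34 ± 2.48 TPM). In both pairs the higher gene was clear of the lower in every library. Polr3k, which encodes a small subunit that acts in termination and RNA cleavage, had 56, 30 and 45 counts (7.54 ± 1.97 TPM).

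Polr3g and Polr3gl encode alternative forms of a single Pol III subunit, of which the former is known for stem cells and proliferating cells and the latter for most tissues. Polr3g had 64, 41 and 68 counts, or 8.55, 5.96 and 9.24 TPM, and Polr3gl had 14, 20 and 26 counts, or 4.61, 7.16 and 8.71 TPM. The log2 ratio of Polr3g to Polr3gl was 0.77, -0.23 and 0.08 in replicates 1, 2 and 3, so neither form stood above the other beyond the spread. The paralogs are similar in sequence, and how reads that align to both were counted was not tested.

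Polrmt (chromosome 10, 79736123 to 79746581), the gene of the mitochondrial polymerase, had 72, 41 and 76 counts (7.26 ± 1.97 TPM). Its level was below that of Polr2a in every library, with a log2 ratio of -2.12 ± 0.165, and within the range of the low Pol III genes.

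Among the genes under the symbols taken that are specific to Pol I, Pol II or Pol III, the Pol II genes had the highest median and the Pol III genes the lowest. The 2 genes common to Pol I and Pol III had a higher median than the Pol II genes in each library, at 49.1, 29.2 and 42.4 TPM. Subunit genes that carry other symbols were left out of this comparison. They are the Pol I genes Cd3eap (95.7 ± 12.7 TPM), Znrd1 (18.7 ± 5.50) and Twistnb (13.1 ± 4.92) and the Pol III gene Crcp (18.5 ± 5.99). The median of the Pol II genes was 42.0, 22.8 and 35.1 TPM, that of the Pol I genes 16.7, 11.9 and 17.5 TPM, and that of the Pol III genes 10.9, 6.45 and 10.4 TPM. This order held in 3 of 3 libraries. On the log2(TPM + 1) scale, Pol II minus Pol I was 1.05 ± 0.207, Pol II minus Pol III was 1.73 ± 0.106 and Pol I minus Pol III was 0.69 ± 0.107. With the mean over the genes in place of the median, Pol II minus Pol III was 1.02 ± 0.130 and Pol I minus Pol III was 0.20 ± 0.113. The largest subunits gave the same order, with a log2 ratio of Polr2a to Polr1a of 1.12 ± 0.227 and of Polr2a to Polr3a of 1.93 ± 0.0629. The genes of a class are not replicates, and an exact sign-flip test over 3 libraries cannot go below p = 0.25, so no test was made of these differences.

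**Figure D2:**
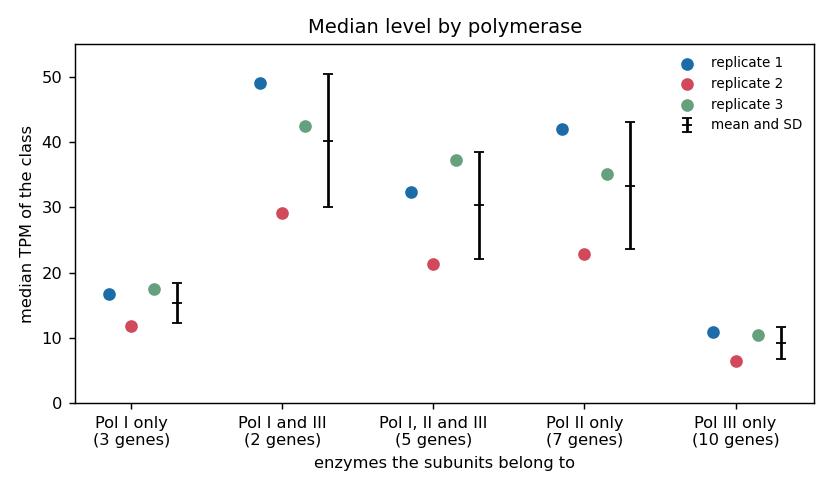
Median TPM of the genes of each class in each library (points), with the mean and SD over 3 libraries (bars). In every library the Pol II median lies above the Pol I and Pol III medians and below that of the genes common to Pol I and Pol III. Replicate 2 (red) is the lowest in each class.

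Of the 29 genes, 9 shared exon bases with a gene on the other strand (31.0%, against 22.1% of all and 34.3% of detected protein-coding genes). A further 14 had such a gene within 5000 bases and 6 had none. In 7 of the 8 pairs described here, the gene on the other strand had the higher level in every library. Gm26628, an antisense gene inside Polr1a (chromosome 6, 71961145 to 71963775), had 1008, 850 and 922 counts and 293 ± 13.8 TPM, which was 18.5, 23.9 and 16.4 times the level of Polr1a, with 185 shared exon bases. Gm16253, tail-to-tail with Polr3gl over 57 bases, had 92, 104 and 112 counts and 15.6 ± 3.31 times its level. Both had more counts than the subunit gene they face in every library.

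Of the 7 genes specific to Pol II, 4 were in such pairs. Dok4, an adaptor protein gene, shares 953 bases with Polr2c (18.1% of its exon length) and had 501, 684 and 581 counts, 7.92 ± 2.88 times the level of Polr2c. Tbcb, a tubulin folding cofactor gene, shares 325 bases at the start of Polr2i (26.8%, the largest share of any member) and had 302, 267 and 267 counts, 3.29 ± 0.240 times its level. Lrwd1, which encodes a protein that associates with the origin recognition complex, shares 176 bases with Polr2j. It had 1702, 1798 and 1715 counts, 3.11 ± 0.487 times the level of Polr2j. Igfbp7, a secreted protein gene, shares 85 bases with Polr2b and had 183, 170 and 156 counts, fewer than Polr2b in every library but 2.22 ± 0.623 times its TPM on a shorter exon length. Gm17249, a long noncoding RNA gene that starts head-to-head with Polr3b and shares 247 bases, had 174, 194 and 162 counts (3.00 ± 1.70 times), and its gene span (84618341 to 84622578) holds the whole Polr3b window printed above.

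In the other pair described the subunit gene was the higher. Clcn2, a chloride channel gene that shares 82 bases at the start of Polr2h, had 75, 79 and 65 counts and stood at 0.236 ± 0.103 times its level. Counts of the subunit genes in these pairs are uncertain for the added reason that reads of the shared bases depend on the strand counted.

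**Figure D3:**
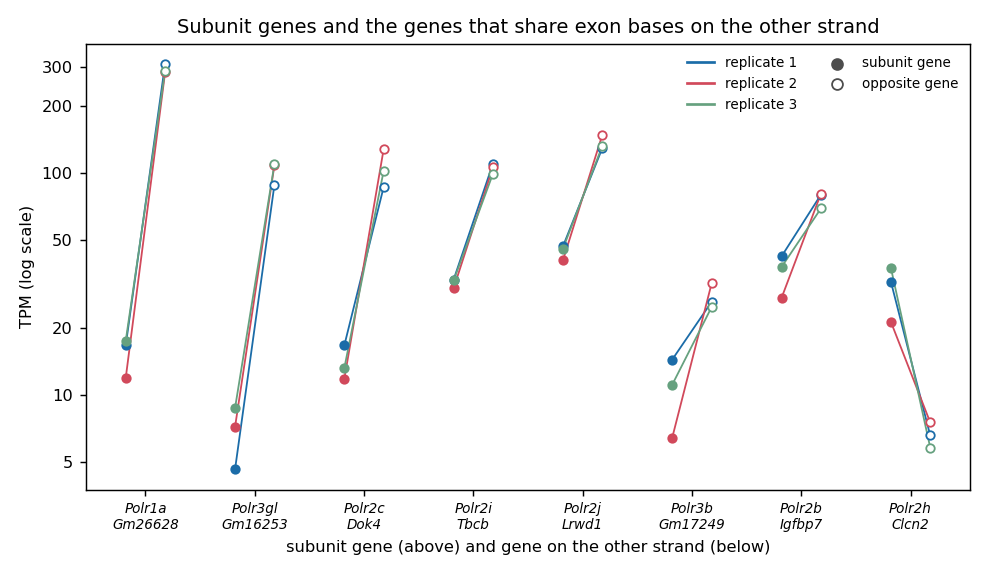
TPM on a log axis of 8 subunit genes with a shared exon stretch (filled points) and of the gene on the other strand (open points), joined within each library. The opposite gene is the higher in 7 pairs, from Gm26628 at 283 to 308 TPM down to Gm17249 at 24.8 to 31.7 TPM, and the lower in the pair of Polr2h.

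Besides these overlaps, 11 of the 29 genes (37.9%) had an opposite-strand gene head-to-head within 500 bases that shares no exon bases with them, against 11.1% of all and 17.5% of detected protein-coding genes. Polr2d had the antisense gene Gm26533 114 bases away with 1463, 1518 and 1533 counts (458 ± 27.5 TPM), against 54, 22 and 33 of its own. Polr2f had 1700088E04Rik 98 bases away with 1766, 1695 and 1809 counts (181 ± 4.33 TPM), and Polr1c had Yipf3, a Golgi protein gene, 26 bases away with 406, 379 and 394. None of these shares exon bases with the subunit gene, and these neighbours were chosen for mention after their values were seen. By contrast, Mblac2 beside Polr3g had 4, 0 and 0 counts and Dzank1 beside Polr3f had 0 in each library. Mir320, 39 bases from the start of Polr3d, had 0, 1 and 0 counts.

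Whether a gene differed between libraries by more than Poisson error was asked with a chi-square test, using TMM library sizes and Benjamini-Hochberg adjustment across 10216 genes. Of the 29 subunit genes 7 passed at 0.05 (24.1%, against 35.6% of all genes tested and 29.0% of protein-coding genes tested), which is not above the background. By position, 2 of the 9 genes with a shared exon stretch passed, against 53.0% of such genes, and 5 of the other 20, against 22.7%. At an unadjusted p under 0.05 there were 10, against 43.9% of all genes tested, which is not above the background either. Of the 7 genes that passed, 6 had lower levels in replicate 2 than the mean of replicates 1 and 3. This direction was not counted among all genes that passed. Over all protein-coding genes tested, the median log2 ratio of replicate 2 to that mean was also negative, at -0.12 with TMM scaling. Polr2a stood at 149, 112 and 148 TMM-scaled CPM (chi-square adjusted p = 5.83e-04), Polr1b at 74.1, 57.5 and 79.9 (adjusted p = 0.0170) and Polr3b at 36.3, 23.4 and 30.9 (adjusted p = 0.0461), each with replicate 2 lowest. Polr2m stood at 87.3, 64.3 and 77.9 CPM (adjusted p = 0.0187) and Polr2g at 23.7, 13.1 and 16.2 (adjusted p = 0.0152). In Polr2e replicate 1 was the high library, at 84.2, 67.1 and 61.8 CPM (adjusted p = 0.00357).

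The other largest or second largest subunits did not pass, with adjusted p = 0.206 for Polr1a, 0.833 for Polr2b and 0.113 for Polr3a in the same chi-square test. Of the shared subunits, Polr1c was nearest the threshold (adjusted p = 0.0511), and Polr1d, Polr2f, Polr2h, Polr2k and Polr2l had 0.762, 0.251, 0.234, 0.785 and 0.567. The values were 0.656 for Polr3g, 0.0857 for Polr3gl, 0.446 for Polrmt and 0.133 for Polr3f. A p that misses the threshold does not show that the libraries were alike.

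The 7 calls rested much on replicate 2. Without it a single subunit gene passed, Polr2e (adjusted p = 0.00787; its alternatives ran from 3.16e-07 to 0.656), where 9.04% of all genes tested passed. The adjusted p without replicate 2 was 0.998 for Polr2a (range 4.29e-13 to 0.998). Without replicate 1 there were 4 calls (24.4% of all genes tested passed), without replicate 3 there were 8 (37.0%), with no filter 8 (19.3%) and with DESeq2 size factors 6 (34.7%). There were 18 with total counts in place of TMM, where 51.7% of all genes tested passed. With TMM computed separately among genes with and without a shared exon stretch, 6 subunit genes passed against 26.8% of all genes, Polr3b among them (adjusted p = 6.21e-05, range 6.21e-05 to 0.529 over its alternatives) and Polr2a not (adjusted p = 0.129).

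The direction in replicate 2 was also counted by the position of the gene. At TMM scaling, replicate 2 was the lowest library for 12 of the 20 subunit genes without a shared exon stretch, against 57.5% of such genes tested, and for 3 of the 9 with one, against 22.5%. With total counts replicate 2 was lowest for 24 of the 29 genes rather than 15, against 64.1% and 42.6% of all genes tested, and 74.0% and 49.8% of protein-coding genes. By position, the numbers at total counts were 6 of 9, against 40.1% of genes with a shared stretch, and 18 of 20, against 81.9% of genes without. The log2 ratio of replicate 2 to the mean of replicates 1 and 3, at TMM scaling, had a median of -0.25 over the 20 genes and 0.12 over the 9. Over all genes tested, the median was -0.04, and it was -0.38 with total counts, -0.19 among genes without a shared stretch and 0.38 among genes with one. Of the 7 T cell markers, 6 were also lowest in replicate 2, and the share of all counts on overlapped genes was highest there, at 77.5%; the part of either in these differences was not tested.

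The same ratio was set side by side within the 8 pairs described, which leave out 1 of the 9. In these the opposite gene had the higher ratio, from 0.39 for Gm26628 to 0.90 for Dok4. The gap was widest for Polr3b and Gm17249, at -0.52 and 0.78, and near 0 for Polr3gl and Gm16253, at 0.54 and 0.59. For Polr2h and Clcn2, where the subunit gene was the higher in level, the ratios were -0.25 and 0.75.

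**Figure D4:**
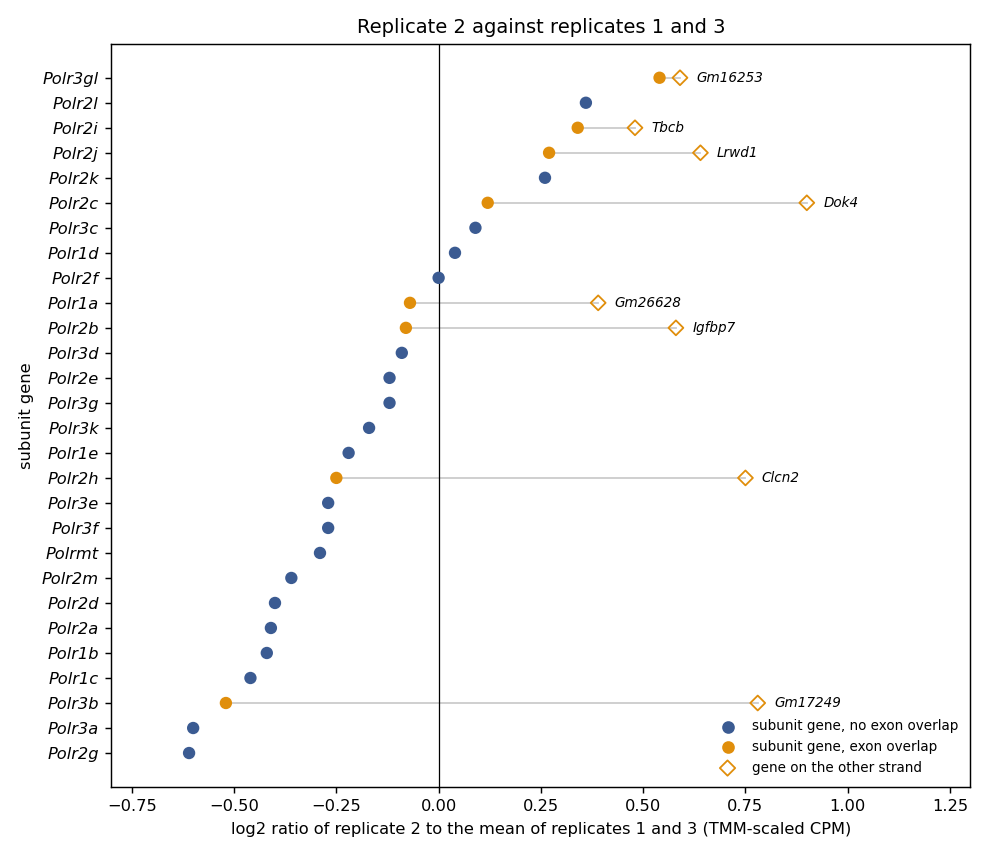
Log2 ratio of TMM-scaled CPM in replicate 2 to the mean of replicates 1 and 3, for 28 subunit genes (filled points) and for the genes that share exon bases with 8 of them on the other strand (open diamonds). Subunit genes run from -0.61 (Polr2g) to 0.54 (Polr3gl), and the 8 diamonds lie to the right of their subunit gene.

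Further subunits carry other symbols in the annotation used, and all 4 that were measured were detected, with a median of 18.6 ± 4.52 TPM. Cd3eap, which encodes a Pol I subunit, had 518, 367 and 436 counts (95.7 ± 12.7 TPM), and its exons overlap Ercc1 on the other strand. The Pol I subunit gene Znrd1 stood at 18.7 ± 5.50 TPM and Twistnb at 13.1 ± 4.92 TPM. Crcp, which encodes a further Pol III subunit, had 60, 33 and 70 counts (18.5 ± 5.99 TPM); it was named after its values were seen.

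Factors that work with the polymerases were detected nearly throughout. All 18 general factors of Pol II were detected (median 10.2 ± 2.38 TPM), led by Gtf2f1 at 118 ± 15.0 TPM and by Tbp, the TATA-binding protein gene that all nuclear polymerases use, with 2357, 2630 and 2490 counts and a mean of 101 TPM (opposite Pdcd2), with Gtf2a1 lowest at 3.21 ± 1.26. All 18 pausing and elongation genes were detected (18.2 ± 4.16 TPM), with Larp7 at 53.4 ± 2.46, Nelfe at 51.6 ± 2.38 and Ccnt2 at 3.03 ± 0.767 TPM. All 12 genes listed for the assembly of Pol II and for its tail were detected (11.2 ± 1.38 TPM). Gpn3, a GTPase gene, stood at 106 ± 4.09 TPM (opposite Fam216a), Ssu72 at 24.7 ± 7.21 (opposite 1500002C15Rik) and Rprd1a at 2.55 ± 0.977. The medians of these Pol II lists lay below the median of the Pol II subunits, 33.3 ± 9.74 TPM.

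The Pol I and Pol III lists held the extremes. Of 8 Pol I factors 7 were detected (8.25 ± 1.61 TPM), with Ubtf, the upstream binding factor of ribosomal DNA, at 52.4 ± 6.39 TPM and Taf1d at 22.7 ± 5.04 (opposite 4931406C07Rik and Cep295), while Cavin1 had 0 counts in each library. All 17 Pol III factors were detected (10.7 ± 2.07 TPM), led by Snapc3 at 324 ± 31.8 TPM (opposite Psip1) and by Ssb, which binds the ends of new Pol III transcripts, at 293 ± 40.2 TPM (opposite Mettl5 and Gm13625), with Brf2 lowest at 2.34 ± 1.54 TPM (opposite Adgra2). The Pol III factor median was close to that of the Pol III subunits, 9.23 ± 2.42 TPM. Of 9 mitochondrial transcription genes 7 were detected (6.76 ± 2.94 TPM), with Tfb1m at 21.7 ± 4.26 TPM (opposite Tiam2), Tfam, the main packaging factor of mitochondrial DNA, at 14.4 ± 5.47 and Mterf1b at 0.391 ± 0.678. In the chi-square test 1 of 4 other subunits, 2 of 7 Pol I factors, 5 of 18 general factors, 6 of 18 elongation genes, 4 of 12 assembly genes, 4 of 16 Pol III factors and 2 of 7 mitochondrial genes passed, against 29.0% of protein-coding genes tested.

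**Figure D5:**
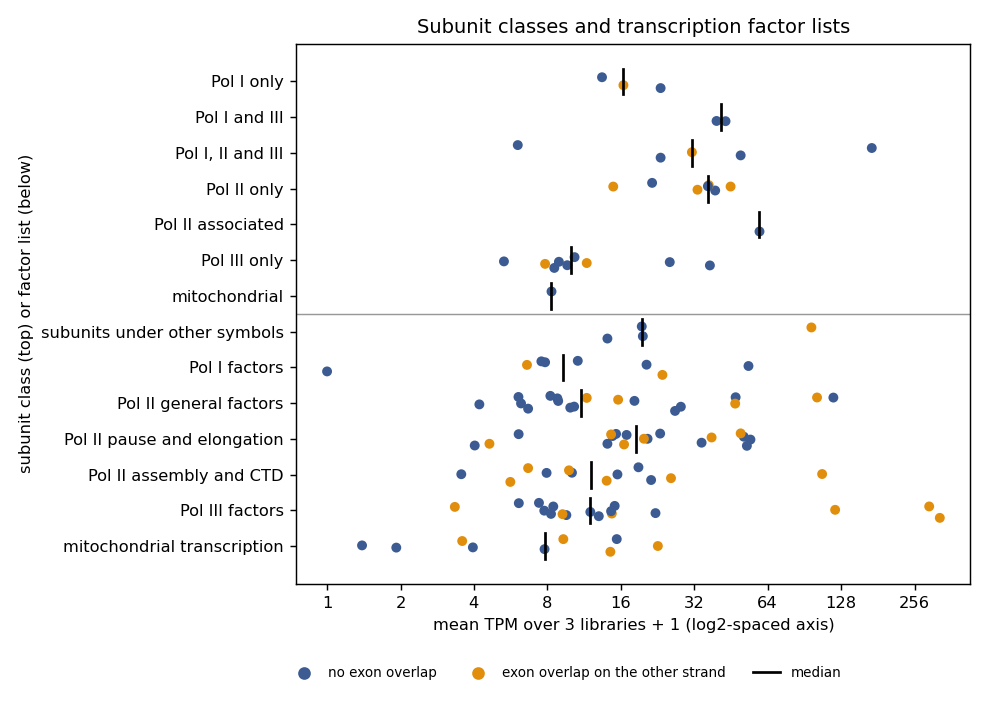
Mean TPM + 1 over 3 libraries of each gene (28 of the subunit genes) on a log2-spaced axis, for the subunit classes (above the line) and the factor lists (below it), with the median of each whole class or list as a black bar; orange points share exon bases with a gene on the other strand. Snapc3 at 324 TPM and Ssb at 293 TPM, both orange, are the highest points, and Cavin1, at 0 TPM, is the lowest.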

How the data were processed

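The authors deposited unnormalized counts per gene, made from read pairs with featureCounts 1.4.6-p4 on exons of GENCODE M13 with strand option 1, per the file headers; the assembly is mm10 per the labels. The exon length in bases, a further deposited value, was used for TPM. No source used here gives the aligner's version. Promoter sequences are from RefSeq. Symbols came from GENCODE M21 and matched 50376 identifiers. TPM, CPM and CPM per kb were computed from the counts. Exon overlaps were found with bedtools 2.31.1. TMM sizes came from edgeR 4.0.16 after filterByExpr, with DESeq2 1.42.0 size factors as an alternative, in R 4.3.3. The chi-square test was run in Python 3.11.15 with scipy 1.17.1. It was tried on simulated Poisson counts at total-count library sizes with some genes changed. That trial does not cover spread beyond Poisson error or TMM sizes. Every member is named but 1, which is counted in totals and is not reported here, with fuller values for the largest, shared and paralogous subunits, the extremes and those called; factor lists are given by their 2 highest and 1 lowest genes. Members, lists and tests were chosen with earlier results of these data known.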

Additional observations from a re-analysis of the deposited data

How the results depend on the processing

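The order Pol II, Pol I, Pol III was kept in the mean over libraries under every alternative run, although the size of the differences moved. The step from Pol I to Pol III became small with means over genes. No alternative added the subunit genes that carry other symbols. Per kb of the longest coding transcript, an alternative chosen after seeing the data, Pol II minus Pol I was 0.83, Pol I minus Pol III 0.81, Polr2a over Polr1a 0.82 and Polrmt over Polr2a -1.82, all as log2 differences. With means over genes in place of medians, Pol II minus Pol I was 0.82 ± 0.113, Pol II minus Pol III 1.02 ± 0.130 and Pol I minus Pol III 0.20 ± 0.113. With genes without a shared exon stretch only, Pol I minus Pol III was 0.82. Polr2a over Polr3a was 1.84 as CPM per kb and 2.04 with a pseudocount of 0.1. Without 1 replicate in turn, Polr2a over Polr2b ran from -0.09 to 0.07 and Polr3g over Polr3gl from -0.08 to 0.42. With total counts, 18 members (62.1%) were called by the chi-square test, against 51.7% of all genes tested. Without 1 replicate in turn, the number called ran from 1 to 8 among members. Among all genes tested it ran from 971 to 3795 (9.04% to 37.0%). The cause of these differences was not tested. The other 75 of the values recomputed for the main comparisons moved by less than the SD over libraries or, for counts, by less than 1.5 times. All 29 members stayed detected at 10 counts, and 26 at 5 TPM in every library. No paired analysis was possible because there is 1 group. Polr2l and Polr3gl, with 14 to 26 counts, have the widest counting error.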
